A study of Mus musculus with 8 samples.

Results

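Carriers of carboxylates, sulfate and related anions were followed in whole kidneys of mice that lost Xpr1, the gene of the phosphate exporter XPR1, from the renal tubule. The members were the protein-coding genes of the Slc13, Slc16 and Slc26 families and the 2 sodium monocarboxylate carriers Slc5a8 and Slc5a12, chosen by symbol in GENCODE vM21. These made 30 of the 46517 genes listed, 5 of Slc13, 12 of Slc16, 11 of Slc26 and 2 of Slc5. Of the 30, 26 had enough reads to be tested. The cKO group held 4 mice, KO16, KO18, KO19 and KO20, homozygous for Xpr1 with exon 2 floxed (Xpr1lox/lox) and carrying LC-1, a Cre transgene that needs the activator rtTA and doxycycline, together with Pax8-rtTA, which makes that activator in tubule cells. The Control group held 4 littermates, C10, C11, C13 and C14, with the floxed alleles and neither transgene. Both groups drank doxycycline at 2 mg/ml for 2 weeks from 8 weeks of age, on standard chow, so Cre and rtTA cannot be told apart from the loss of Xpr1. Each mouse gave 1 library of reads from messenger RNA of the whole kidney, and values are counts normalised to library size (CPM), scaled with TMM factors.

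The proximal tubule takes back filtered lactate, pyruvate, citrate, succinate and sulfate. Sodium-coupled carriers of the SLC5 and SLC13 families bring these anions in across the brush border or, for some dicarboxylates, across the basolateral membrane. SLC26 proteins exchange anions such as sulfate, oxalate, chloride and bicarbonate, and several of them belong to particular nephron segments. SLC16 proteins, the monocarboxylate transporters (MCTs), move lactate and ketone bodies with a proton in some members and creatine or carnitine in others.

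Libraries held 20366113 (KO16) to 26155030 (C13) reads in genes. Xpr1 stood at 5.74 to 26.5 CPM in cKO libraries, against 80.2 to 126 CPM in Control libraries, so each library followed its label. KO16 and KO20 held the least Xpr1 and stood apart on the first principal component (at 112 and 80.8, with the other cKO libraries at -11.6 and 1.93), as did C11 at -86.1 among Control libraries at -43 to -18.1. Members were re-examined without these 3 libraries. In that setting 57.8% of all genes tested were called, against 14.1% with all libraries kept, so a call there is not particular to a member. Proximal tubule markers were lower in cKO kidneys for 6 of 7 genes, with summed levels of 1982 to 3978 CPM in cKO libraries, against 7284 to 12460 CPM in Control libraries, and so were 3 of 4 markers of its S3 segment (533 to 1318 CPM against 2718 to 4052 CPM). Of 5 intercalated cell markers 0 passed the test (235 to 340 CPM against 222 to 297 CPM), injured tubule markers were higher for 4 of 4 (196 to 589 CPM against 12.3 to 44.8 CPM) and macrophage markers for 4 of 5 (155 to 391 CPM against 76 to 97.8 CPM). Of 12 further marker lists, principal cells had Aqp2 higher and Aqp3 lower of 5 genes, fibroblasts Dcn higher of 3 and muscle Acta1 higher as the 1 gene tested; 0 genes passed for thick ascending limb, distal convoluted tubule, endothelium, T cells, B cells, neutrophils, podocytes, fat and red blood cells. No marker was at 0 in all libraries. Their part in the results below was not tested, and in whole-kidney RNA fewer cells of a type and less RNA per cell cannot be told apart.

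The carriers as a group were lower in cKO kidneys. All members together took 0.0659% to 0.143% of the reads in genes of cKO libraries, against 0.209% to 0.283% in Control libraries. Summed per kilobase of exon, they stood at 194 ± 44.6 CPM per kb in cKO kidneys and 569 ± 52.8 CPM per kb in Control kidneys (SD, n = 4 mice each). The lowest Control library, C10, held 526 CPM per kb, above the highest cKO library, KO18, at 255. The sodium monocarboxylate carriers stood 75% and the Slc13 genes 76.4% below Control by these sums, and the Slc16 and Slc26 genes 54.4% and 56.5% below. The Slc26 sum rests largely on Slc26a1, which made 35.3 of 56.9 CPM per kb in Control and 7.05 of 24.8 in cKO kidneys. Of 8 tested Slc26 genes 2 were called lower, and their median log2 fold change was -0.42.

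**Figure D1:**
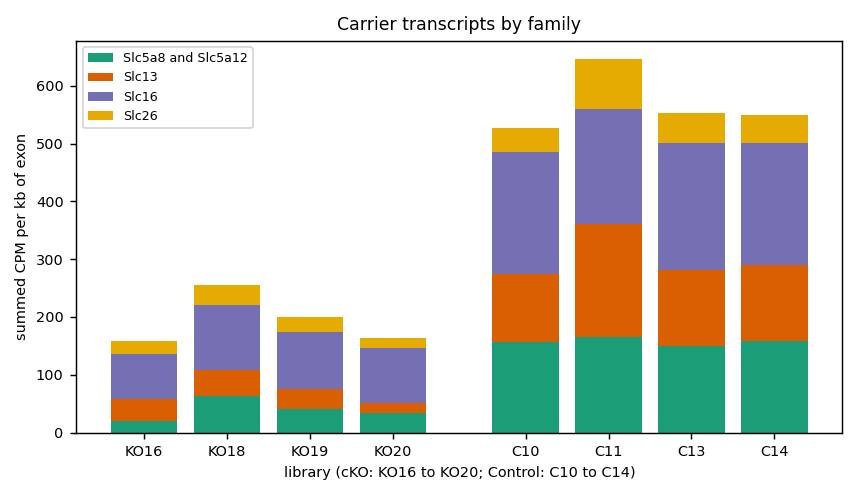
Carrier transcripts in each library, as stacked bars of summed CPM per kilobase of exon on a linear axis from 0, with cKO libraries left and Control libraries right. The cKO bars reach 158 (KO16) to 255 (KO18) and the Control bars 526 (C10) to 646 (C11).

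Gene by gene, 14 of the 26 tested members fell in cKO kidneys, 1 rose and 11 did not pass (edgeR quasi-likelihood test, Benjamini-Hochberg adjusted p under 0.05 over 15382 genes). Over all genes tested, 6.61% were called lower and 7.5% higher, 14.1% in all. The log2 fold change of cKO over Control was negative for 23 of the 26 members, against 49.5% of all genes, and its median was -0.96, against 0.01 over all genes. All 4 cKO libraries lay below all 4 Control libraries for 15 members and above them for 1, where 11.6% and 11.2% of all genes did so. Slc13a4 and Slc16a14 passed the filter on low counts through the Control libraries alone, with 2 cKO libraries over its cutoff of 0.393 CPM.

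**Figure D2:**
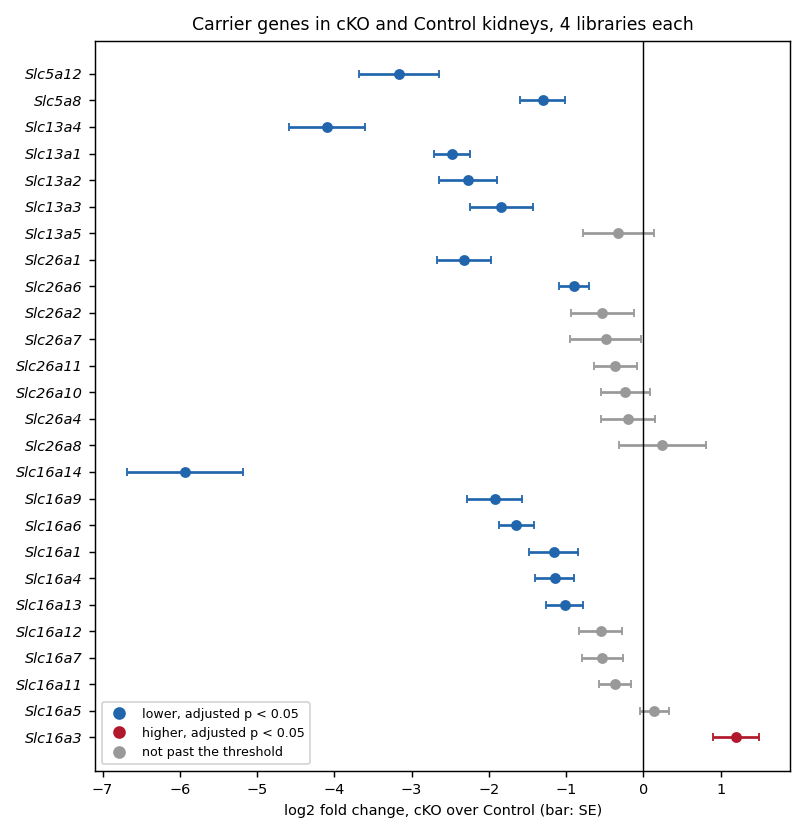
Log2 fold change of cKO over Control for the 26 tested carriers, with the SE as bars, grouped by family. Slc16a14 (-5.93), Slc13a4 (-4.09) and Slc5a12 (-3.16) lie farthest left, and Slc16a3 (1.20) is the one gene called higher.

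Promoter windows of 5 of the members that changed are printed here. Apart from Slc16a14, these are the called members whose windows hold the hypoxia response core ACGTG. The other called members that have a window hold no ACGTG in it, so the printed windows do not stand for all members that changed. RefSeq's table (GRCm38.p6) gave windows of 250 bases before to 50 after a start for 21 of the 30 members. Slc16a14, which fell most, has its window at chr1:84935034-84935333 (minus strand), Slc13a3 at chr2:165473148-165473447 (minus strand) and Slc26a1 at chr5:108674747-108675046 (minus strand). Slc26a1 has a second window at chr5:108675316-108675615, nearer the annotated gene start, which holds 0 of the motifs searched. Slc16a1 has it at chr3:104638414-104638713 (plus strand), and Slc16a3, which rose, at chr11:120948817-120949116 (plus strand). Capitals mark the hypoxia response core ACGTG or its complement CACGT and the nuclear receptor motif AGGTCA.
Slc16a14: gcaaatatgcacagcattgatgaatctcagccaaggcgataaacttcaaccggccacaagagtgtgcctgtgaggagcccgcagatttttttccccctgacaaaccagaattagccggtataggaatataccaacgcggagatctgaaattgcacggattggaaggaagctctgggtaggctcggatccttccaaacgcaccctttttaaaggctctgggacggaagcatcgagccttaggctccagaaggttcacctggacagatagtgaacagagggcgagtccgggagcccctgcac
Slc13a3: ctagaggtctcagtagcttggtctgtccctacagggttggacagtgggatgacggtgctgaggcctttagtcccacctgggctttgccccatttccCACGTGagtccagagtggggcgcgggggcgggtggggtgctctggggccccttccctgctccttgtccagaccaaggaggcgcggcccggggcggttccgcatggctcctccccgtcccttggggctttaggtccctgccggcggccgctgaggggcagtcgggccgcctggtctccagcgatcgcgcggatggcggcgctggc
Slc26a1: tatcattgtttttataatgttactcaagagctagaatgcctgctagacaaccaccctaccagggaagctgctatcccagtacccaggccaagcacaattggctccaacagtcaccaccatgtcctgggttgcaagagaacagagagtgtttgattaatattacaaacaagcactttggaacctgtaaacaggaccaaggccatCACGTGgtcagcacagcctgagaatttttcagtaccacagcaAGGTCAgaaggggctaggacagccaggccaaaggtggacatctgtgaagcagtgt
Slc16a1: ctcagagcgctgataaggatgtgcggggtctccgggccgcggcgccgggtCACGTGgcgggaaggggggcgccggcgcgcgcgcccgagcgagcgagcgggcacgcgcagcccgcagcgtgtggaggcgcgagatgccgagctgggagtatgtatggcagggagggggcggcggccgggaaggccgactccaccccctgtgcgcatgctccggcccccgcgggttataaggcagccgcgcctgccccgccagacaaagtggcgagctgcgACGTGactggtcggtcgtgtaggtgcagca
Slc16a3: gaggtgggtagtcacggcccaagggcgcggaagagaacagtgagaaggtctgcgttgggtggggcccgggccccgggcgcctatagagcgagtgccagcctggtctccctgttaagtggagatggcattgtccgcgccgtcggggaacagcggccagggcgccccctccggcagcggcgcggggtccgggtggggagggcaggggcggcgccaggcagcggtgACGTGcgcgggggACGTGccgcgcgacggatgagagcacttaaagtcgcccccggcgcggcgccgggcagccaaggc
Both strands were searched for 4 short motifs, and a CACGTG palindrome counts on each strand. The HNF1 motif GTTAAT and the HNF4 core CAAAGTC are named for regulators of proximal tubule genes. They were in the windows of 0 of the 10 fallen members that have one, against 7.1% and 4.44% of all 32851 windows. With shares this low, 0 of 10 does not set these members apart. Slc13a1, Slc5a12, Slc16a6 and Slc16a13 also fell but had no window. ACGTG was in the windows of 3 of the 10 fallen members (Slc13a3, Slc16a1 and Slc26a1), against 19.6% of all windows. It was also in that of Slc16a3, where it starts 27 and 14 bases before the start site. Of 6 tested members with a window that were not called, 1 held ACGTG. That was Slc16a12, whose window also held the HNF4 core. AGGTCA was in 1 of the 10, Slc26a1, in the window printed, against 16.3% of all windows. A match is a description of letters only, and these starts need not be the ones used in kidney.

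Both sodium-coupled monocarboxylate carriers fell. Slc5a12 encodes SMCT2, the low-affinity lactate and pyruvate carrier of the early proximal tubule brush border. It stood at 12.7 (KO16), 81.3 (KO18), 32.9 (KO19) and 23.8 CPM (KO20), against 338 (C10), 350 (C11), 306 (C13) and 359 CPM (C14). Control mice lay close together, whereas KO18 stood well above the other cKO libraries. The log2 fold change was -3.16 with an SE of 0.52 (adjusted p = 0.0046). It was -3.87 without KO18 (adjusted p = 0.00101) and -2.57 without KO16 and KO20 (adjusted p = 0.00684). Slc5a8 encodes SMCT1, the high-affinity carrier of the later proximal tubule, which also takes short-chain fatty acids. Its level was 85.8, 231, 172 and 153 CPM in KO16, KO18, KO19 and KO20, against 396, 419, 394 and 376 CPM in C10, C11, C13 and C14. The groups did not overlap, and KO16 was lowest and KO18 highest among cKO libraries, as for Slc5a12. Slc5a8 had a log2 fold change of -1.30 with an SE of 0.29 (adjusted p = 0.0176; 0.0556 without C13). Within a library the log2 ratio of Slc5a12 to Slc5a8 was -2.33 ± 0.57 in cKO and -0.23 ± 0.12 in Control kidneys (SD, n = 4 each), a difference of -2.10 with no overlap between groups. An exact two-sided permutation test gave p = 0.0286, the smallest that 4 against 4 libraries allow. After adjustment over the 7 pairs of carriers compared it was 0.0667, which did not pass. A pair could pass only if most of the 7 reached the smallest p, so the adjusted value cannot tell whether this ratio differed.

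Of the 5 Slc13 genes, 4 fell. Slc13a1 encodes NaS1, the sodium-sulfate cotransporter of the proximal brush border. It held 57.9, 70.6, 69.5 and 43.8 CPM in KO16, KO18, KO19 and KO20, against 385, 291, 333 and 340 CPM in C10, C11, C13 and C14. This carrier varied little within either group, and its log2 fold change was -2.48 with an SE of 0.23 (adjusted p = 0.000487). Slc13a2 encodes NaDC1, the apical carrier for citrate and succinate. Its level was 11.6, 14.2, 12.5 and 6.54 CPM in KO16, KO18, KO19 and KO20, against 32.6, 91.8, 45.8 and 45.7 CPM in C10, C11, C13 and C14. C11 lay well above the other Control mice, and all cKO libraries were below the lowest Control library. The log2 fold change was -2.27 with an SE of 0.38 (adjusted p = 0.00478). Reads of Slc13a2 are less certain because 26.2% of its exonic length overlaps the antisense gene Slc13a2os, which held 171 reads in all, and the strand setting of the counting is not given in the sources used here.

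Slc13a3, encoding NaDC3, the basolateral high-affinity dicarboxylate carrier, followed the same direction. It stood at 139, 154, 108 and 45.3 CPM in KO16, KO18, KO19 and KO20, against 275, 617, 358 and 346 CPM in C10, C11, C13 and C14. KO20 was the lowest and C11 the highest of all libraries, as for Slc13a2. Its log2 fold change was -1.84 with an SE of 0.41 (adjusted p = 0.0169). Slc13a4 encodes the sulfate carrier NaS2, best known from placenta and brain. Its reads numbered 6, 14, 20 and 2 in KO16, KO18, KO19 and KO20, against 97, 235, 145 and 125 in C10, C11, C13 and C14. This gene was at 0.364 ± 0.221 CPM in cKO and 6.49 ± 2.07 CPM in Control kidneys, a log2 fold change of -4.09 with an SE of 0.49 (adjusted p = 0.0011), so a low level became lower by a factor of 17.1. Slc13a5, the sodium-citrate carrier known from liver and brain, averaged 1.11 ± 0.52 CPM in cKO and 1.41 ± 0.792 CPM in Control kidneys and did not pass (-0.32, adjusted p = 0.71). Its sign is not settled, since it turned to 0.029 with library totals alone and to 0.14 without C11.

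Within libraries, the log2 ratio of the apical pair Slc13a1 to Slc13a2 was 2.46 ± 0.20 in cKO and 2.74 ± 0.79 in Control kidneys (difference -0.29, exact permutation p = 0.543, adjusted p = 0.571). For the apical Slc13a2 over the basolateral Slc13a3 the difference of cKO minus Control was also -0.29 (exact permutation p = 0.2, adjusted p = 0.28). In neither pair was a difference detectable with 4 mice a group, which does not show that the genes changed alike.

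Among the Slc26 exchangers the proximal pair fell. Slc26a1 encodes SAT1, which exchanges sulfate for oxalate or bicarbonate across the basolateral membrane. It held 24.8, 39.5, 34 and 15.8 CPM in KO16, KO18, KO19 and KO20, against 97.8, 213, 134 and 127 CPM in C10, C11, C13 and C14. Every cKO library was below every Control library, KO20 was lowest and C11 highest, and the log2 fold change was -2.32 with an SE of 0.35 (adjusted p = 0.00309). Slc26a6 encodes the apical exchanger of chloride for oxalate, formate or bicarbonate. Its level was 4.36, 4.8, 4.33 and 4.55 CPM in KO16, KO18, KO19 and KO20, against 8.05, 10.1, 7.69 and 7.71 CPM in C10, C11, C13 and C14. The cKO mice lay within a narrow band below the Control range, with a log2 fold change of -0.89 with an SE of 0.20 (adjusted p = 0.0161; 0.0503 with KO19 left out and 0.057 with KO20 left out). The log2 ratio of Slc26a6 to Slc26a1 was -2.56 ± 0.57 in cKO and -4.03 ± 0.33 in Control kidneys, a difference of 1.47 without overlap (exact permutation p = 0.0286, adjusted p = 0.0667). Without KO16, KO20 and C11 the difference was 0.92.

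The Slc26 genes of intercalated cells did not pass. Slc26a4 encodes pendrin, the chloride-bicarbonate exchanger of type B and related intercalated cells. It stood at 34.6, 58.2, 40.3 and 25.9 CPM in KO16, KO18, KO19 and KO20, against 33.2, 76.7, 38.5 and 34 CPM in C10, C11, C13 and C14. The groups overlapped, and the highest value of all was that of C11 (log2 fold change -0.20, SE 0.35, adjusted p = 0.775). Its direction turned positive with library totals alone (0.14), without C11 (0.17), without KO20 (0.020) and without KO16 and KO20 (0.11). With KO16, KO20 and C11 all left out, Slc26a4 was called higher (0.44, adjusted p = 0.0317), in a setting where 57.8% of all genes were called. Its adjusted p ran from 0.0317 to 0.984 over the alternatives. The summed level of 3 type B markers was 30.9 to 69.8 CPM in cKO libraries, against 46.5 to 138 CPM in Control libraries, with C11 again highest and 0 of 3 called. Slc26a7 encodes an anion exchanger of type A intercalated cells. It held 0.957, 3.1, 3.58 and 5.4 CPM in KO16, KO18, KO19 and KO20, against 4.92, 2.93, 6.43 and 4.03 CPM in C10, C11, C13 and C14. KO16 alone was far below the rest, and the log2 fold change of -0.48 did not pass (SE 0.46, adjusted p = 0.558; -0.66 and 0.0258 without KO16, KO20 and C11). The 2 type A markers summed to 32.6 to 67 CPM in cKO libraries, against 38.9 to 94.2 CPM in Control libraries, with 0 of 2 called. The log2 ratio of Slc26a4 to Slc26a7 did not differ detectably (difference 0.49, exact permutation p = 0.571, adjusted p = 0.571).

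Other Slc26 genes were low and did not pass. Slc26a2, the sulfate transporter needed for cartilage matrix, averaged 11.9 ± 6.38 CPM in cKO and 17.2 ± 5.2 CPM in Control kidneys (-0.53, adjusted p = 0.459), with KO16 and KO20 at 5.58 and 7.25 CPM and KO18 and KO19 at 17 and 17.8 CPM. Its log2 fold change was 0.0046 without KO16 and KO20. Slc26a11, which transports sulfate and chloride, had -0.36 (adjusted p = 0.451), Slc26a10 -0.23 (0.697; 0.090 with library totals alone, and 17.8% of its exonic length overlaps B4galnt1 on the opposite strand) and Slc26a8, known from sperm, 0.24 (0.831; 1.04 and 0.046 without KO16, KO20 and C11). Slc26a3 of the intestine, Slc26a9 of stomach and airway and the retinal Slc16a8 held at most 8 reads in a library and were not tested. Slc26a5, the cochlear motor protein prestin, had 0 reads in all 8 libraries, and a count of 0 allows up to 0.0909 CPM (KO19) to 0.159 CPM (KO16), taken as 3 reads and covering counting error alone. Slc26a3 and Slc26a4 are neighbours on chromosome 12, at 31390871 to 31473917 and 31519827 to 31559969, and differ in that Slc26a3 had 4 reads in all.

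**Figure D3:**
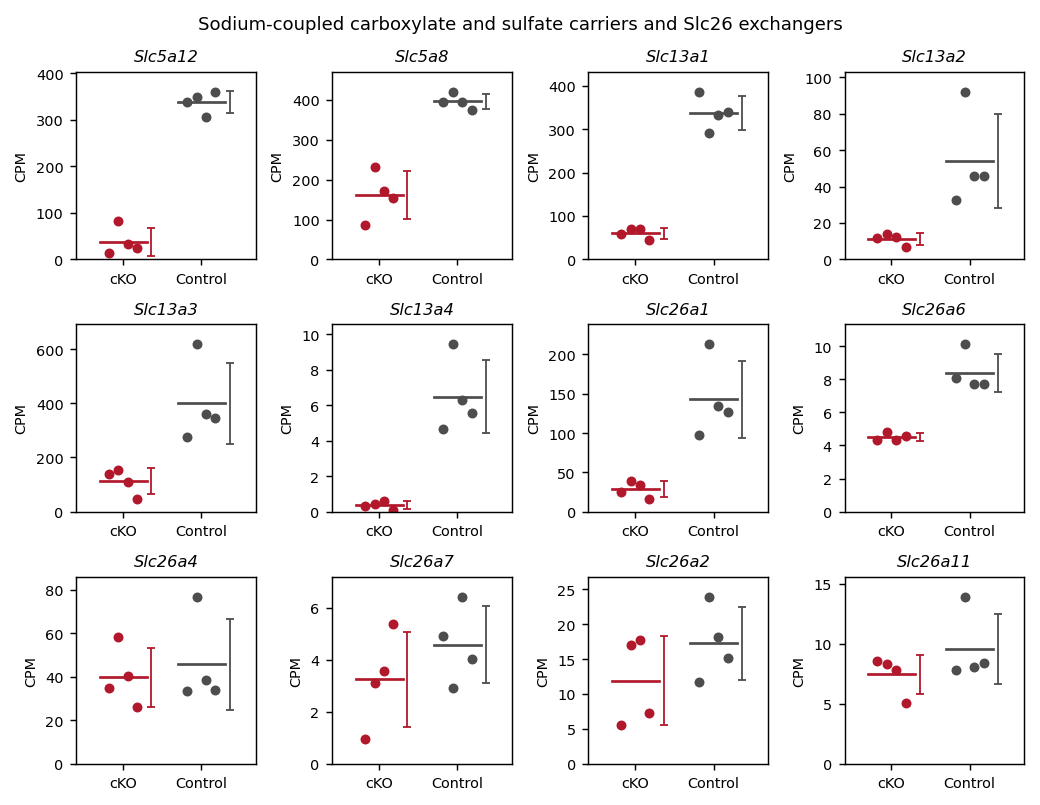
CPM in each library for 12 genes of the Slc5, Slc13 and Slc26 families, cKO left and Control right, with the mean as a line and the SD as a bar beside it (n = 4 each, linear axes from 0). The groups are apart for the first 8 genes and overlap for Slc26a4, Slc26a7, Slc26a2 and Slc26a11.

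In the Slc16 family 6 of 11 tested genes fell, 1 rose and 4 did not pass. Slc16a14, encoding MCT14, changed most of all members. Its reads numbered 5, 63, 22 and 3 in KO16, KO18, KO19 and KO20, against 999, 824, 1522 and 1095 in C10, C11, C13 and C14. It was nearly lost in KO16 and KO20 and reached 2.02 CPM in KO18, whereas no Control library was below 33 CPM. The means were 0.769 ± 0.862 CPM in cKO and 49 ± 13.5 CPM in Control kidneys, a log2 fold change of -5.93 with an SE of 0.75 (adjusted p = 0.00144). It was -7.03 without KO18 (adjusted p = 0.00067) and -5.20 without KO16 and KO20 (adjusted p = 0.00285), so the size of the change rests on single cKO libraries. The gene spans 84905898 to 84935134 of chromosome 1 (GRCm38), transcribed from the minus strand.

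Of the lactate carriers MCT1, MCT2 and MCT4, 1 fell, 1 did not pass and 1 rose. Slc16a1 encodes MCT1, the broadly expressed lactate, pyruvate and ketone body carrier. It held 13.4, 14.8, 11.6 and 13.2 CPM in KO16, KO18, KO19 and KO20, against 46.4, 16.5, 23.7 and 32 CPM in C10, C11, C13 and C14. Control mice were spread widely and C11 lay just above the cKO range. The log2 fold change was -1.16 with an SE of 0.31 (adjusted p = 0.0371), and the call was lost without any single library but C11: the adjusted p was 0.0888 without C10, 0.0678 without C13, 0.0976 without C14, 0.0554 without KO16, 0.0551 without KO18, 0.089 without KO19 and 0.118 without KO20. Slc16a3 encodes MCT4, the lactate exporter of glycolytic cells and a known target of hypoxia-inducible factors. Its reads numbered 42, 40, 44 and 40 in KO16, KO18, KO19 and KO20, against 15, 15, 14 and 20 in C10, C11, C13 and C14. All cKO libraries were above all Control libraries at a level that stayed low, 1.63 ± 0.438 CPM in cKO and 0.705 ± 0.133 CPM in Control kidneys. The log2 fold change was 1.20 with an SE of 0.30 (adjusted p = 0.0261), and it did not pass without C10 (0.0747), C11 (0.0612), C13 (0.1), C14 (0.0576) or KO20 (0.0705). Slc16a7 encodes MCT2, a high-affinity pyruvate and lactate carrier. It stood at 49.3, 68.2, 68.4 and 86.9 CPM in KO16, KO18, KO19 and KO20, against 116, 61.7, 108 and 108 CPM in C10, C11, C13 and C14. C11 lay among the cKO values, and the difference did not pass (-0.53, SE 0.26, adjusted p = 0.235), except without KO16, KO20 and C11 (-0.74, adjusted p = 0.000218).

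The log2 ratio of Slc16a3 to Slc16a1 was -2.99 ± 0.38 in cKO and -5.15 ± 0.52 in Control kidneys. The difference of 2.17 came with groups that did not overlap, though the adjusted value did not pass (exact permutation p = 0.0286, adjusted p = 0.0667). For Slc16a1 over Slc16a7 the difference was -0.54 with overlapping groups (exact permutation p = 0.114, adjusted p = 0.2). Of the 7 ratios compared, 0 passed after adjustment and 3 reached the smallest exact permutation p before it. With so few libraries none could pass unless most of the 7 reached that p, however large the difference.

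**Figure D4:**
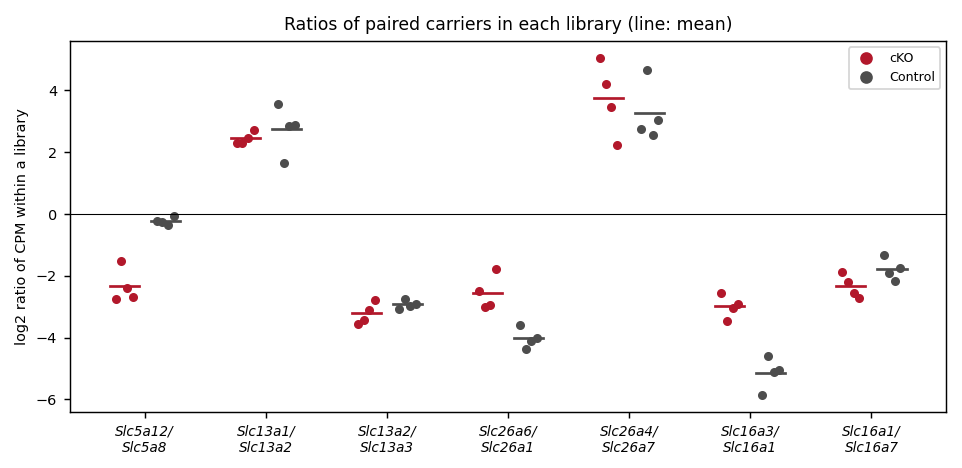
Log2 ratio of the CPM of paired carriers within each library, cKO left and Control right of each tick, with the mean as a line. Gene length was not corrected. A fixed length cancels between groups, but a trend with transcript length that differs between libraries does not. The groups are apart for Slc5a12/Slc5a8 (-2.33 and -0.23), Slc26a6/Slc26a1 (-2.56 and -4.03) and Slc16a3/Slc16a1 (-2.99 and -5.15), and overlap for the other 4 pairs.

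The MCT genes for carnitine and creatine differed in their calls, though the difference between them was not tested. Slc16a9 encodes MCT9, which carries carnitine out of cells. Its level was 31.6, 81.9, 71.9 and 40.9 CPM in KO16, KO18, KO19 and KO20, against 158, 297, 217 and 185 CPM in C10, C11, C13 and C14. The groups were apart, with KO16 lowest and C11 highest (-1.92, SE 0.35, adjusted p = 0.00755). Slc16a12 encodes MCT12, a creatine carrier, and averaged 122 ± 42 CPM in cKO and 178 ± 13.2 CPM in Control kidneys. KO16 at 63 CPM was lowest, and KO20 held 128, KO19 134 and KO18 162 CPM. Only KO18 lay just under the Control range of 163 to 195 CPM. The difference did not pass (-0.55, adjusted p = 0.247), except without KO16, KO20 and C11 (-0.35, adjusted p = 0.0267).

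Slc16a6, whose zebrafish counterpart exports ketone bodies from the liver, held 3.72, 4.16, 4.24 and 3.25 CPM in KO16, KO18, KO19 and KO20, against 10.8, 15.6, 9.43 and 12.2 CPM in C10, C11, C13 and C14. The groups were clearly apart (-1.64, SE 0.23, adjusted p = 0.00224), but 21.5% of its exonic length overlaps Amz2 on the opposite strand, so its reads are uncertain. Slc16a4, encoding MCT5, stood at 101, 92.9, 81 and 99.3 CPM in KO16, KO18, KO19 and KO20, against 251, 123, 225 and 230 CPM in C10, C11, C13 and C14. C11 was nearest to the cKO range. The log2 fold change of -1.15 with an SE of 0.25 (adjusted p = 0.0164) did not pass without C10 (0.0519), C13 (0.0597), C14 (0.0572) or KO20 (0.0672).

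Slc16a13 and Slc16a11, whose human counterparts lie in a region linked to type 2 diabetes, are neighbours on chromosome 11. They run towards each other, Slc16a11 from 70212752 to 70216417 and Slc16a13 from 70216789 to 70221064, with 371 bases between them. Slc16a13 held 27.3, 20.9, 19.7 and 13.7 CPM in KO16, KO18, KO19 and KO20, against 40.1, 47, 38.7 and 39.5 CPM in C10, C11, C13 and C14. It was called lower (-1.02, SE 0.24, adjusted p = 0.0218), though not without C10 (0.0529), C13 (0.0618), C14 (0.0606), KO19 (0.0572) or KO20 (0.0923). Slc16a11 averaged 8.79 ± 0.73 CPM in cKO and 11.3 ± 2.04 CPM in Control kidneys and did not pass (-0.37, adjusted p = 0.294); the difference between the neighbours was not tested. Slc16a5, encoding MCT6, did not pass, at 24.2 ± 3.1 CPM in cKO and 21.9 ± 1.94 CPM in Control kidneys (0.14, adjusted p = 0.684).

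**Figure D5:**
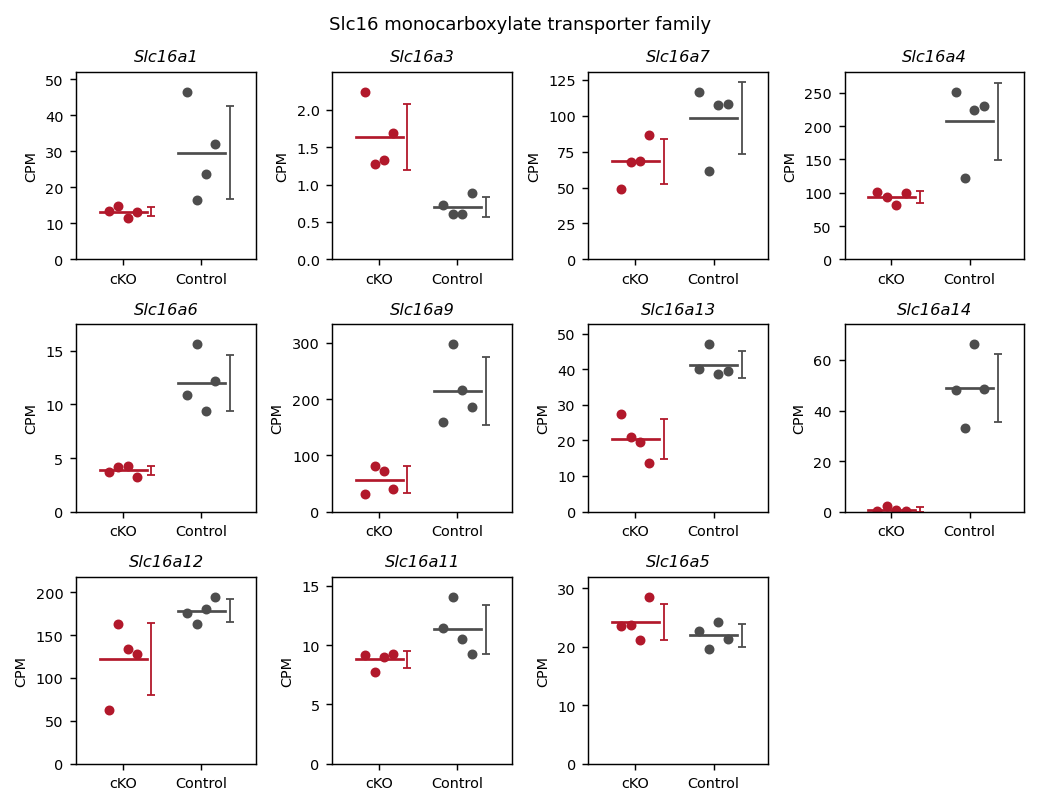
CPM in each library for the 11 tested Slc16 genes, cKO left and Control right, with the mean as a line and the SD as a bar (n = 4 each, linear axes from 0). Slc16a14 is near 0 in cKO libraries (0.127 to 2.02 CPM), Slc16a3 is the one gene with all cKO libraries above Control, and Slc16a7, Slc16a11 and Slc16a5 overlap.

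Per length of exon, the order of the carriers differed between groups. In Control kidneys Slc5a12 led at 83.3 ± 5.69 CPM per kb, followed by Slc13a3 at 76.5 ± 28.7 and Slc5a8 at 74.3 ± 3.33, and neighbours in this order lay within their spread. In cKO kidneys Slc5a8 led at 30.1 ± 11.2 CPM per kb, followed by Slc16a12 at 29.2 ± 10.1, Slc16a4 at 24.1 ± 2.34 and Slc13a3 at 21.4 ± 9.21, again within their spread. Slc5a12 stood at 9.28 ± 7.45 CPM per kb in cKO kidneys, a spread that takes in Slc16a13 at 7.84 and Slc13a1 at 7.83, so its place there is not settled, against number 1 of 26 in Control kidneys. Slc26a4 was number 6 in cKO kidneys at 12.8 ± 4.38 CPM per kb, against number 11 in Control kidneys at 14.7 ± 6.71.

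Single libraries shaped these values, and mouse and library cannot be told apart with 1 library from each mouse. KO16, KO20 and C11 also differed in mapping and length trend. Reads with several alignments made 49.8% (KO16), 53.4% (KO20) and 33.7% (C11) of the total, against 37.6% to 43.3% elsewhere. The class of shortest genes stood at 0.955 (KO16), 0.488 (KO20) and -0.362 (C11) from the Control mean in log2, against -0.234 to 0.244 elsewhere. The part of this in the values was not tested. Among the 14 members that fell, KO20 was the lowest cKO library for 8 and KO18 the highest for 10. C11 was the highest Control library for 9 of the 14, and the lowest for 4. The call stood in all 18 alternative analyses for 9 of the 14: Slc13a1, Slc13a2, Slc13a3, Slc13a4, Slc5a12, Slc26a1, Slc16a6, Slc16a9 and Slc16a14, with adjusted p up to 0.0449. For the other 5 the adjusted p reached 0.0948 (Slc5a8), 0.126 (Slc26a6), 0.118 (Slc16a1), 0.0672 (Slc16a4) and 0.0923 (Slc16a13) at most, and for Slc16a3 it ran from 0.00466 to 0.1. For members not called it ran from 0.000218 to 0.74 (Slc16a7), from 0.0267 to 0.787 (Slc16a12) and from 0.0258 to 0.919 (Slc26a7). With the trend of each library with transcript length removed, 14 members were called lower and 1 higher, the same genes as above.

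Genes that make, use or accompany the carried anions were examined in 8 lists. Of 69 tested genes 23 fell (33.3%, against 6.61% of all genes), 2 rose (against 7.5% of all genes) and 44 did not pass. Enzymes of lactate, pyruvate and ketone bodies fell for 7 of 14, with 0 higher and a median of -0.60. The smallest p-values belonged to Acat1, which works on acetoacetyl-CoA (442 ± 20.3 CPM in cKO and 1245 ± 169 CPM in Control kidneys, adjusted p = 0.00187), and the D-lactate dehydrogenase Ldhd (398 ± 136 and 1508 ± 175 CPM, adjusted p = 0.00295). Aacs, which activates acetoacetate, fell by 2.41 on the log2 scale (adjusted p = 0.00873) and pyruvate carboxylase, Pcx, by 2.24 (adjusted p = 0.0106). Neither of the MCT chaperone genes Bsg and Emb passed. Bsg, basigin, averaged 639 ± 327 CPM in cKO and 485 ± 90.4 CPM in Control kidneys (0.40, adjusted p = 0.525), with KO16 highest. Its value turned to -0.45 without KO16, KO20 and C11 (adjusted p = 0.00628). Emb, embigin, had 57.3 ± 11.5 and 34 ± 6.05 CPM (0.75, adjusted p = 0.0571), and passed with upper-quartile factors (0.0386), library totals alone (0.00637), DESeq2 (0.0249) and without KO16, KO20 and C11 (0.0311), with a range of 0.00637 to 0.167.

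Citrate cycle genes fell for 6 of 20, with 0 higher and a median of -0.54. These included Slc25a10, the mitochondrial dicarboxylate carrier (110 ± 16.3 CPM in cKO and 354 ± 59.1 CPM in Control kidneys, adjusted p = 0.00146), Suclg2 (-1.30, adjusted p = 0.00187), Idh2 (-1.05, adjusted p = 0.0062) and the malic enzyme gene Me1 (-1.15, adjusted p = 0.00802; 0.0506 without KO20). Sulfate production and activation genes fell for 2 of 13, against 6.61% of all genes, with 0 higher. So small a count does not set this list apart. The 2 were Cth, which yields cysteine (114 ± 3.7 CPM in cKO and 227 ± 32.9 CPM in Control kidneys, adjusted p = 0.00852), and sulfite oxidase, Suox (36.3 ± 9.04 and 87.3 ± 23.2 CPM, adjusted p = 0.0124, and 0.0749 without KO20). Oxalate and glyoxylate genes fell for 4 of 5 tested: Agxt2 (15.3 ± 2.02 CPM in cKO and 105 ± 13 CPM in Control kidneys), Prodh2 (3.86 ± 1.67 and 37.9 ± 10.2 CPM), Hao2 (-1.73) and Hoga1 (-1.32), with adjusted p of 0.000215 to 0.00453.

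In the creatine list 1 of 5 tested genes fell, against 6.61% of all genes, which does not set this list apart. It was Gatm, which makes the creatine precursor guanidinoacetate (231 ± 91.3 CPM in cKO and 973 ± 115 CPM in Control kidneys, adjusted p = 0.0024). Ckmt1, a mitochondrial creatine kinase, had 0.65 (adjusted p = 0.265), which turned to -0.048 without KO16 and KO20. Carnitine genes fell for 3 of 4 tested: Bbox1, the last enzyme of carnitine synthesis (0.388 ± 0.188 CPM in cKO, under the filter's cutoff, and 2.23 ± 0.359 CPM in Control kidneys, adjusted p = 0.00286), Aldh9a1 (-1.52, adjusted p = 0.00327) and the carnitine uptake carrier gene Slc22a5 (-0.89, adjusted p = 0.0137; 0.0547 without C13, 0.0527 without C14 and 0.0694 without KO20). Crat had -0.63 (adjusted p = 0.225). In the thyroid hormone list 2 of 6 tested genes rose, against 7.5% of all genes, and 0 fell. Dio1, the deiodinase of kidney and liver, stood at 107 ± 42.9 CPM in cKO and 21.8 ± 7.27 CPM in Control kidneys (2.29, SE 0.36, adjusted p = 0.00386). Dio2 had 5.51 ± 2.63 and 1.16 ± 0.982 CPM (2.25, adjusted p = 0.0298), with a fold 1.67 times as large without C10. It did not pass without C11 (0.07), C13 (0.0827), C14 (0.0943), KO19 (0.0603) or KO20 (0.0779), nor without KO16 and KO20 together (0.061).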

How the data were processed

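Messenger RNA of whole kidneys of 8 mice, 4 cKO and 4 Control, was made into libraries with a stranded kit (500 ng RNA each), per the labels' protocols. The authors deposited unnormalised counts for each Ensembl gene; the submitters' processing notes name cutadapt 1.3, STAR 2.4.0g, HTSeq 0.6.1 and the build GRCm38. The strand setting and annotation release of the counting: not given in the sources used here. Closing lines that name no gene (39.7% to 56.2% of each file) were left out of totals and tests. Per the closing lines, reads with several alignments were not assigned, so counts of similar paralogs rest on their distinct parts. GENCODE vM21 supplied symbols and exonic lengths for 46005 of 46517 identifiers; some Slc16 genes are not reported here.

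All genes were fitted with edgeR 4.0.16 (R 4.3.3): TMM factors, filterByExpr (minimum count 10, minimum total 15), quasi-likelihood F test of cKO over Control without covariates, checked on simulated counts. SE derives from the F statistic; log2 CPM used a prior count of 2. Ratios of 7 carrier pairs were tested by exact permutation over libraries (scipy 1.17.1), with Benjamini-Hochberg adjustment. With 1 library from each mouse, a p-value reflects only how far these libraries vary. No replicate pair looked like copies (chi-square per degree of freedom at least 7.53). The members, the 8 pathway lists and the marker lists were chosen with earlier results of these data known. Values were given by library for members with an adjusted p under 0.05 and a mean of at least 1 CPM, and for 12 carriers whatever their values; pathway genes were named by smallest p. Also tried were upper-quartile and RLE factors, unscaled library totals, DESeq2 1.42.0, limma-voom (limma 3.58.1), no filter, a mean of at least 1 CPM, a length-trend offset, leaving out each library, and leaving out KO16 and KO20 with and without C11.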

Additional observations from a re-analysis of the deposited data

Results flagged for a closer look

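In 5 of 52 groups of 4 libraries examined (26 tested members in each genotype), 1 library stood far from the other 3 by Dixon's criterion, which flags about 1 group in 20 by chance, or 2.6 of 52 if groups were independent; they share libraries. In each case it was the Control library C11. C11 was highest for Slc26a4 (76.7 CPM, the other Control libraries at 33.2 to 38.5), Slc16a13 (47, others 38.7 to 40.1), Slc26a6 (10.1, others 7.69 to 8.05) and Slc26a11 (13.9, others 7.81 to 8.38). C11 was lowest for Slc16a7 (61.7 CPM, others 108 to 116).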

How the results depend on the processing

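The 14 fallen members numbered 10 to 14 without each single library, 13 without KO16 and KO20 and 17 without KO16, KO20 and C11; none of the called members changed sign in an alternative. Slc16a3 was not called with no filter (0 members higher), 0 to 1 were called without each library, 0 without KO16 and KO20 and 3 without KO16, KO20 and C11. Library totals alone shifted the median of all genes to 0.34 and that of the members to -0.64, called 548 genes lower and 2374 higher (81.2% higher, against 53.2% in the main analysis), and lost Slc16a1, Slc16a13, Slc26a6 and Slc5a8; upper-quartile factors shifted the median of all genes to 0.14 (63.9% higher) and lost Slc16a1, as did limma-voom (adjusted p = 0.0533). DESeq2 called 1499 genes lower and 1756 higher. Leaving out a library gave 566 to 1334 lower and 531 to 1363 higher genes. Without KO16, KO20 and C11 there were 4486 and 4689 (57.8% of the genes tested), where fewer and more alike libraries were compared. Pathway genes called lower numbered 15 to 33 and those higher 1 to 2 without each library, 1 higher without KO16 and KO20, 4 higher with library totals, and 52 lower and 6 higher without KO16, KO20 and C11. Among genes not called, signs turned for Slc13a5 (0.029 with library totals, 0.12 without KO16 and KO20, 0.55 without C11 as well; -0.62 to 0.14 without each library), Slc26a4 (0.14, 0.11, 0.44; -0.45 to 0.17), Slc26a2 (0.0046 without KO16 and KO20, 0.17 without C11 as well), Slc26a10 (0.090 with library totals), Slc26a8 (-0.0058 to 0.89 without each library), Slc16a5 (-0.057 without KO16, KO20 and C11), Bsg (-0.30 and, without C11 as well, -0.45) and Ckmt1 (-0.048 and -0.076). The ratio difference of Slc26a6 to Slc26a1 was 0.92 without KO16, KO20 and C11; leaving out a library leaves too few libraries for the exact test to pass. Without KO16, KO20 and C11, called folds that moved by over 1.5 times were those of Slc13a2 (-1.67), Slc13a4 (-3.41), Slc16a9 (-1.32), Aacs (-1.57) and Dio1 (1.59). The cause of these shifts was not tested. Control mice were littermates, but the labels give no litter or pairing for each mouse, so neither could be modelled. Members under about 1 CPM rest on few reads a library.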
